A study of Mus musculus with 8 samples.

Results

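Zfp600, Zfp972 and Gm14327 are 3 genes of mouse zinc finger gene clusters whose array signal was higher in the cochlea of miR-183/96 knockout mice than in control mice. They were chosen by that difference and as genes of zinc finger clusters. Among features with an unadjusted limma p under 0.01 and no overlap between the groups, they ranked 2, 3 and 8 from the top by log2 difference. The features that ranked 1 and 4 to 7, of other genes, were not taken. The levels of the 3 genes are therefore given here as a description. Each gene had 1 array feature that the platform annotation links to no other symbol, which makes 3 of 23521 such features and 3 of 22180 genes. Expression was measured on Affymetrix Mouse Gene 2.0 ST arrays in 4 knockout animals, from which the Mir183 and Mir96 microRNA genes were removed, and in 4 control animals, called wild type in the series text. All were at postnatal day 16, each array held RNA of the whole encapsulated cochlea with both ears of 1 animal pooled, and neither the strain, the sex nor the structure of the deleted allele is given in the sources used here. The labels give the 2 groups the same replicate numbers, but do not say that a number marks a shared litter or day.

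Most C2H2 zinc finger proteins bind DNA through rows of fingers, each held together by a zinc ion. In the large KRAB subfamily a second domain recruits the co-repressor TRIM28, which brings in the histone H3K9 methyltransferase SETDB1 and so silences chromatin, above all at retrotransposons. Genes of this family lie in dense clusters of young, very similar copies, which makes it hard for array probes to tell one copy from the next. By RefSeq's annotation of GRCm38.p6, Zfp600 (gene 667666) lies on chromosome 4 and is protein-coding. Zfp972 (gene 78703) lies on chromosome 2, is protein-coding, and falls wholly inside the span of Gm14327 (gene 665205). Gm14327 is listed as a transcribed pseudogene with 0 RefSeq proteins. The name zinc finger gene rests here on its cluster and on array features that it shares with Zfp-named genes, and its sequence was not examined. Which strand and which transcript each feature reads was not analysed here, and signal of the overlapping pair cannot be assigned to one of them from the values alone.

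The 5p forms of the microRNAs that the knockout removes are shown first, since these microRNAs define the comparison. For build GRCm38.p6 RefSeq gives a 5p and a 3p mature form of each, on the minus strand of chromosome 6. Only the 5p forms are printed, with the seed, bases 2 to 8, in capitals.
mmu-miR-96-5p: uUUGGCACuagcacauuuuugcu
mmu-miR-183-5p: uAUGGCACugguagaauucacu
Whether transcripts of the 3 genes hold matches to these seeds, or to those of the 3p forms, was not analysed here.

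RefSeq start-site windows, which run from 250 bases before to 50 after a transcript start, were matched by symbol for Zfp600 (2 windows) and Zfp972 (1 window). The outer Zfp600 window, that of Zfp972 and that of Rex2, a neighbour of Zfp600, are shown to let the reader compare the sequences. Capitals mark the CCAAT box (CCAAT, or ATTGG on the other strand) and the GC box (GGGCGG or CCGCCC). The TATA box (TATAAA or TTTATA) was searched too.
Zfp600, GRCm38.p6, chr4:146156577-146156876, plus strand: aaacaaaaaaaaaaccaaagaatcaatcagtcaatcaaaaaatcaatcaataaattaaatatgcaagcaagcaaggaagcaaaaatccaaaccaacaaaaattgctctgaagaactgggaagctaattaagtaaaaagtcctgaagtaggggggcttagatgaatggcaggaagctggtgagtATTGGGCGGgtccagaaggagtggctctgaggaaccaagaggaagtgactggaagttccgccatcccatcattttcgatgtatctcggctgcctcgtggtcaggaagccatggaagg
Rex2, GRCm38.p6, chr4:147021600-147021899, plus strand: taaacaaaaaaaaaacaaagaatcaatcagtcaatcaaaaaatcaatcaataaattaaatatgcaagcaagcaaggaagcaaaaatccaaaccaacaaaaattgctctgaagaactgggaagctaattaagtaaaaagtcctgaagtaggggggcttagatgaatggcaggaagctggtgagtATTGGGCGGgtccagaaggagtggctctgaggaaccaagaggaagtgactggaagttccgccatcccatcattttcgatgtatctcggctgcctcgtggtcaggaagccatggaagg
Zfp972, GRCm38.p6, chr2:177925601-177925900, minus strand: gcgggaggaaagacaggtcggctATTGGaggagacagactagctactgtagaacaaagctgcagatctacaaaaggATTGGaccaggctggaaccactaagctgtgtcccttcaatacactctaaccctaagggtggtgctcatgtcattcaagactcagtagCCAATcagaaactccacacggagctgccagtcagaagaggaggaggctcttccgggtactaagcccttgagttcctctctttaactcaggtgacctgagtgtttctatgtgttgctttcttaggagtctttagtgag

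Zfp600 and Rex2 carried nearly the same window. At 296 of 300 positions the base was the same, and 96.2% of the 12-base words of the Zfp600 window recurred in that of Rex2. In both, a CCAAT box on the other strand and a GC box overlapped in 1 stretch. Zfp979 shared 78.2% of the words of the Zfp600 window, Zfp982 45.7% and Zfp980 42.9%. The Zfp972 window held 3 CCAAT boxes, 2 of them on the other strand, and neither of the other motifs. It was less like the windows of other genes than the outer Zfp600 window was: the nearest genes, 10 of them tied, shared 11.1% of its words. The second Zfp600 window held 1 TATA box on the other strand and shared at most 1.73% of its words with another gene. Of all 32851 windows, 37.4% held a CCAAT box, 35.7% a GC box and 13.6% a TATA box.

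Zfp600, represented by feature 17421413, read 6.31, 6.25, 6.31 and 6.87 in knockout replicates 1 to 4 on the log2 scale. In control replicates 1 to 4 it read 4.83, 5.39, 6.17 and 5.004. All knockout values lay above all control values, but the lowest knockout value exceeded control replicate 3 by only 0.07. The group means were 6.43 ± 0.29 and 5.35 ± 0.60 (SD, n = 4), a difference of 1.08 (limma SE 0.24) or 2.12-fold. Control animals were thus spread over 1.34 on the log2 scale, more than the difference between the means, and knockout animals over 0.62.

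Zfp972, represented by feature 17395398, read 7.71, 7.39, 7.56 and 7.95 in knockout replicates 1 to 4. The control replicates read 6.37, 6.60, 7.06 and 6.28. The groups were separated by 0.33, the widest gap of the 3 genes, and control replicate 3 was again the nearest control animal. The means were 7.65 ± 0.24 in knockout and 6.58 ± 0.35 in control cochlea (SD, n = 4), a difference of 1.08 (SE 0.17) or 2.11-fold. Its spread within groups was the smallest of the 3, with a pooled SD of 0.30 against 0.47 for Zfp600 and 0.42 for Gm14327. All 3 were variable within groups beside other tested features. The pooled SD lay at the 88.4th percentile for Zfp972, 98.9 for Zfp600 and 97.9 for Gm14327.

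Gm14327, represented by feature 17380572, read 4.13, 4.88, 4.46 and 5.10 in knockout replicates 1 to 4. In control replicates 1 to 4 the values were 4.08, 3.65, 4.04 and 3.21. The lowest knockout animal, replicate 1, stood only 0.05 above control replicate 1. The means were 4.64 ± 0.43 and 3.75 ± 0.41 (SD, n = 4), a difference of 0.90 (SE 0.22) or 1.86-fold. Its mean signal lay at the 17.9th percentile of tested features, and as no background level was used here, a signal this dim could not be told from background. For Zfp600 that percentile was 65.6 and for Zfp972 91.8.

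**Figure D1:**
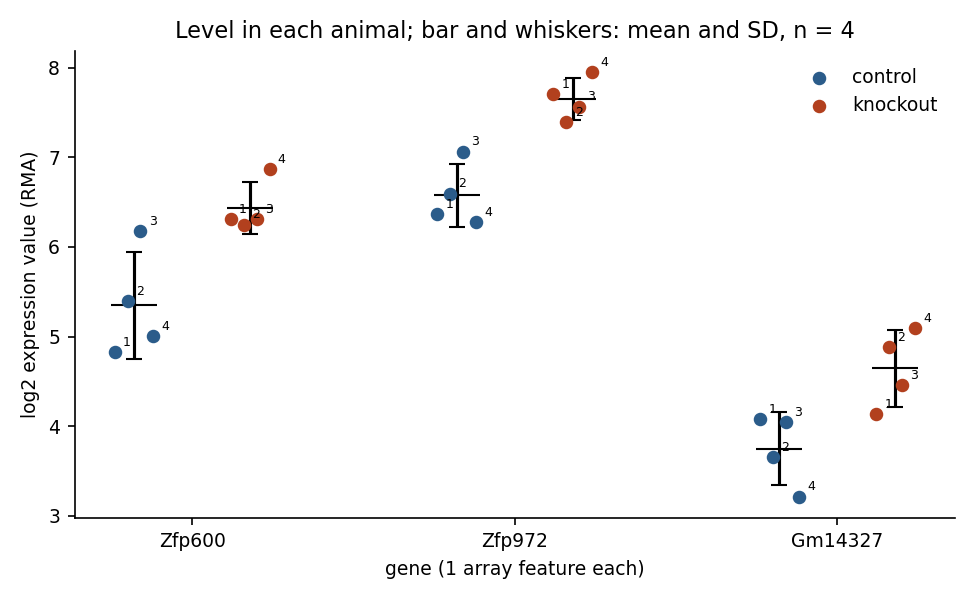
Log2 expression values of the 3 genes in each animal, with the replicate number beside each point and the mean and SD of each group (n = 4). The groups are apart by 0.07 for Zfp600, 0.33 for Zfp972 and 0.05 for Gm14327, and control replicate 3 is the highest control for Zfp600 and Zfp972.

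In the fit over all features, 0 of the 3 genes passed a limma adjusted p of 0.05, against 0.0128% of tested features called. The adjusted p was 0.0839 for Zfp972, 0.262 for Zfp600 and 0.291 for Gm14327. Without control replicate 3, where 21 features or 0.0893% were called, this changed for 2 of them, with a limma adjusted p of 0.00748 for Zfp972 at a difference of 1.24 and of 0.0152 for Zfp600 at 1.36. As the genes were chosen on this contrast, nothing further is read from these calls. In the ranking by log2 difference behind the choice, Gm14327 stood at 0.90 and the next feature down, of Gm15128, at 0.89. The highest of the other features whose symbols begin with Zfp and a number, that of Zfp93, stood at 0.67 with separate groups.

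Part of the array could not separate the copies. The annotation links 9 features to Gm14327 together with other symbols, 7 to 13 symbols each, and 2 of these 9 hold identical values. Their differences ran from 0.06 to 0.17 with a median of 0.12, at log2 values between 6.502 and 8.497. At 0 of 9 were the groups apart, where 3.30% of all features were apart in the higher and 2.65% in the lower direction. The 9 share many of their symbols and are not separate readings, so nothing is read from this count. One feature is linked to Zfp600 together with 4 other symbols. It read 6.41, 6.18, 6.03 and 6.43 in knockout replicates 1 to 4 and 5.93, 6.05, 6.22 and 5.74 in control replicates 1 to 4. The difference was 0.28 (SE 0.14), with control replicate 3 above 2 of the knockout animals. A feature of several copies reads their summed signal, so these values bear on the group of copies and not on 1 gene. The genes' own features were chosen for separate groups and the shared ones were not, so nothing is read from the contrast between them.

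**Figure D2:**
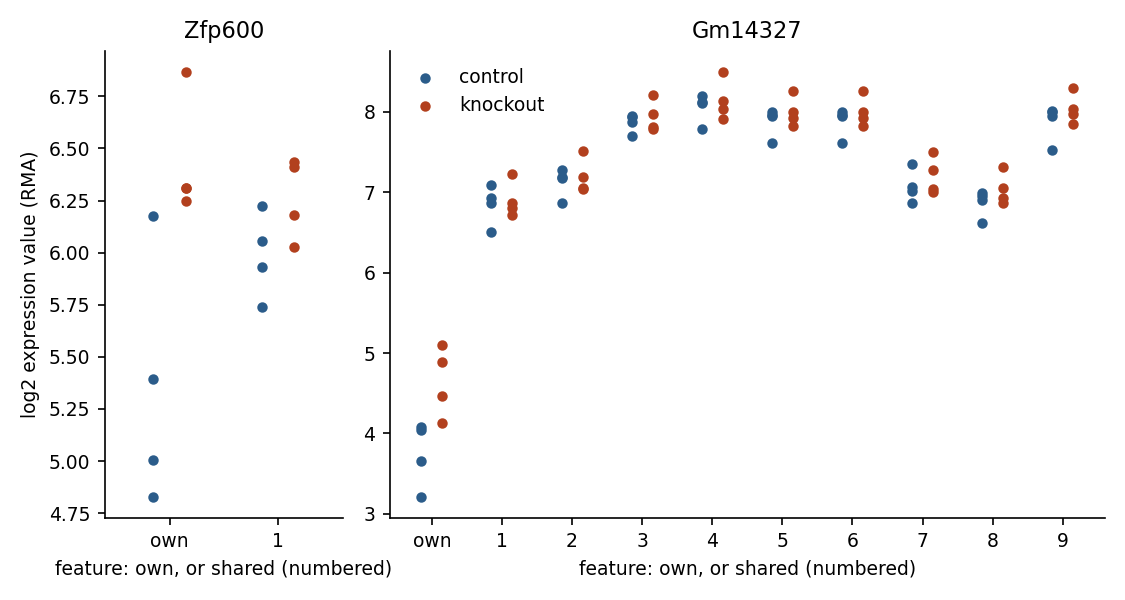
Log2 expression values per animal for the gene's own feature and for the features it shares with other symbols, numbered by rising difference. The own features were chosen for separate groups. The groups overlap at the shared features, 1 for Zfp600 and 9 for Gm14327, as they do at most tested features. The shared features were not chosen by their values.

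Of the genes co-linked to these features, 6 had features of their own, 10 in all, and the others were not measured alone. None passed the limma adjusted threshold, against 0.0128% of all features. At an unadjusted p under 0.05 there were 0, against 7.04% higher and 7.25% lower over all features. The groups overlapped at all 10, where 3.30% of all features were apart in the higher and 2.65% in the lower direction. Among 10 features, counts of 0 are near these shares, so nothing is read from them. The median difference of the 10 was 0.16, within a range from -0.10 for Zfp971 to 0.30 for Rex2. Rex2, whose start-site window was so like that of Zfp600, differed by 0.30 (SE 0.15; limma adjusted p = 0.367) at a dim mean of 3.05, beside 1.08 for Zfp600. The 3 features of Zfp979 read 0.21, 0.26 and 0.26. On chromosome 2, the 3 features of 2210418O10Rik read 0.19, 0.08 and -0.07. Of the 10 genes tied as nearest to Zfp972 by start-site window, 2 had features of their own: Gm14295 at -0.06, and Gm2004 at 0.08 and 0.18. Zfp600 and Zfp972 were chosen for their large differences, so smaller ones in the genes set beside them were likely in advance. Nothing is read from that contrast.

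Across other Zfp-named features, differences were split between both directions, with 201 of 397 positive. The symbol was the only rule for this list, so cluster copies named otherwise, such as Gm13212 and Rex2, are not in it. Symbols that begin with Zfp and a number, Zfp600 and Zfp972 left out, came from 368 genes, and 0 of the 397 features passed the limma adjusted threshold. At an unadjusted p under 0.05, 14 were higher (3.53%) and 20 lower (5.04%), where all tested features gave 7.04% higher and 7.25% lower. The groups did not overlap at 9 features in the higher direction (2.27%, against 3.30% of all features) and at 7 in the lower direction (1.76%, against 2.65%). The median difference was 0.0031, beside 0.01 over all tested features, and it turned to -0.06 after cyclic loess or repeated quantile normalization and to -0.08 after median centring. The median of all tested features turned with it, to -0.03, -0.03 and -0.07.

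Among these other Zfp-named features, that of Zfp93 was the highest at 0.67 (SE 0.15, limma adjusted p = 0.262). Its means were 4.09 ± 0.20 in knockout animals and 3.42 ± 0.25 in controls (SD, n = 4), with separate groups. One feature of Zfp640 followed at 0.47 and its other feature read 0.41, both dim with means of 2.00 and 2.90. Zfp184 stood at 0.46 with overlapping groups. At the other end were Zfp944 at -0.59, Zfp943 at -0.55 and Zfp84 at -0.48, each with overlapping groups and a limma adjusted p of 0.296, 0.304 and 0.301.

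**Figure D3:**
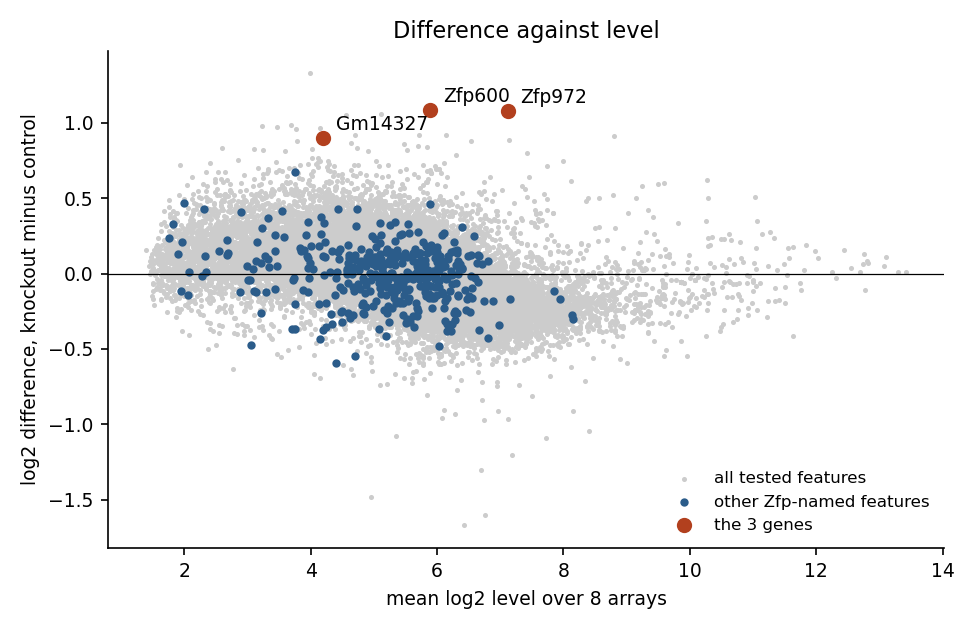
Log2 difference, knockout minus control, against the mean log2 level over the 8 arrays, for all 23521 tested features, the 397 other Zfp-named features and the 3 genes. The 3 genes, chosen for their difference, stand at 0.90 to 1.08, the highest other Zfp-named feature is that of Zfp93 at 0.67, and the cloud tilts downwards with rising level.

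That tilt was set beside each gene. Features in the same decile of mean level as Gm14327 had a median difference of 0.14, those around Zfp600 -0.04 and those around Zfp972 -0.21. Measured from these medians the 3 genes stood at 0.76, 1.12 and 1.29. After cyclic loess, which evens out such a tilt, they differed by 0.75 for Gm14327, 1.08 for Zfp600 and 1.22 for Zfp972.

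Genes beside the 3 genes on the chromosome differed by -0.36 to 0.52. The 10 nearest measured genes on each side of Zfp600 and of the Zfp972 and Gm14327 pair had 47 features of 40 genes. Of these 0 passed the limma adjusted threshold, 37 had a positive difference (12321 of 23521 for all features), and 6 had an unadjusted p under 0.05, all higher (12.8%, against 7.04% of all features). With 20 genes on each side the counts were 6 higher and 5 lower among 89 features. These are 6.74% and 5.62%, against 7.04% and 7.25% of all features. The groups were apart in the higher direction at 2 of the 47 features (4.26%, against 3.30%). The median level of the 47 features was 5.06, where all features of that decile had a median difference of 0.08. Nothing is read from these counts.

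Around Zfp600 the median was 0.23 over 23 features, at a median level of 3.92 where all features of that decile had 0.14. It was 0.03 over the 9 features with a mean of at least 5. In order before Zfp600, Gm13034 read -0.07, Gm13238 0.23 and Zfp980 0.14. After it, Zfp992 read 0.12, Zfp981 0.11 and the noncoding RNA 1700095A21Rik 0.47 with separate groups, the last at a dim mean of 2.16. The zinc finger gene Gm13212, the fourth before Zfp600, read 0.47 and 0.52 at its 2 features, the highest of these 23. Their mean levels were 2.57, which is dim, and 5.43.

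Around Zfp972 and Gm14327 the median was 0.09 over 24 features, 18 of them positive. After median centring the median was 0.0077, with 12 positive. Before the pair, Gm14322 read 0.04, the pseudogene Gm14406 0.47 with separate groups, and Gm14403 0.28. After it, the zinc finger genes Zfp971 and Zfp931 read -0.10 and -0.36, and Phactr3, which encodes a phosphatase and actin regulator, read 0.12. Thus both signs occurred within a few genes of the pair.

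**Figure D4:**
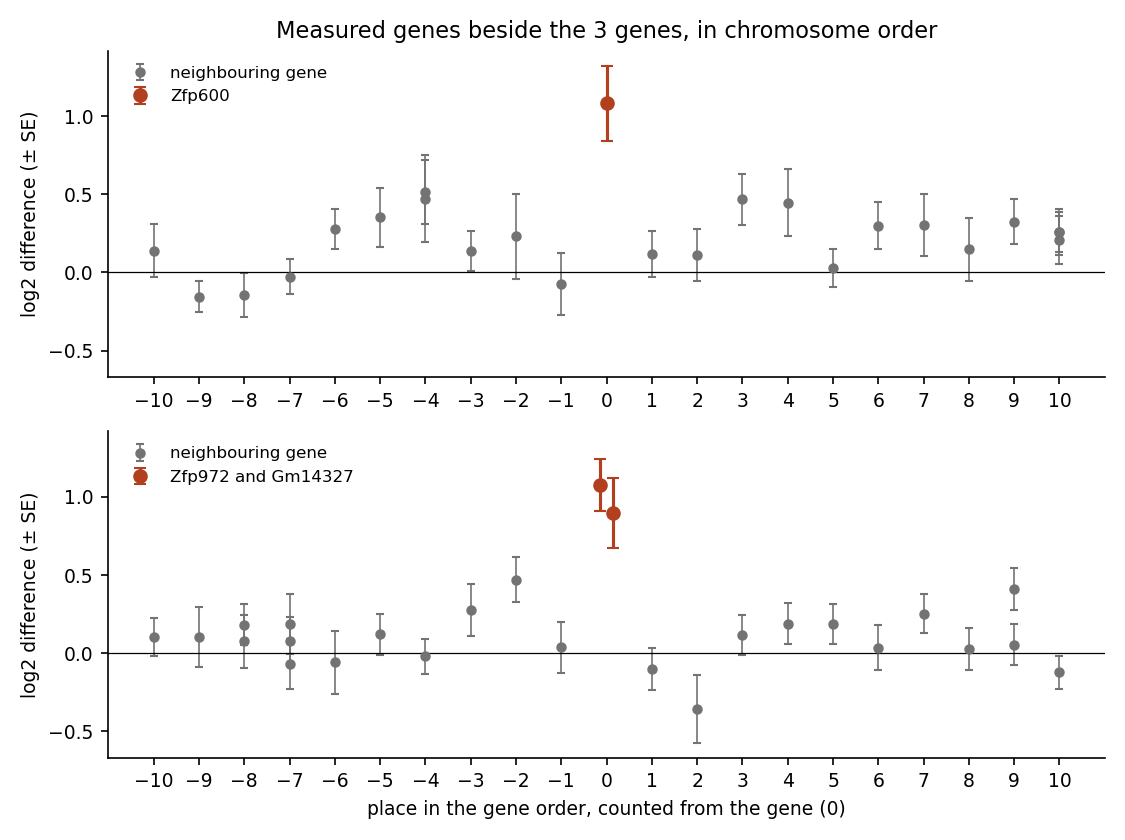
Log2 difference with its limma SE for the measured features of the 10 genes on each side of Zfp600 (top) and of Zfp972 and Gm14327 (bottom), in chromosome order and not to distance. The 3 genes stand at 0.90 to 1.08, and the 47 neighbouring features between -0.36 and 0.52.

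Genes of KRAB-directed repression were read as a list of 24 genes, 22 of them measured by 26 features. Most encode recruited chromatin proteins, while Zfp57 (0.19) and Zfp809 (0.12) encode KRAB zinc finger proteins themselves and belong to the Zfp-named features too. None passed the limma adjusted threshold, and at an unadjusted p under 0.05 there were 5 lower and 0 higher (19.2% lower, against 7.25% of all features). The lowest were Cbx5, which encodes the heterochromatin protein HP1 alpha, at -0.45, the chromatin remodeller gene Atrx at -0.43 and the co-repressor gene Trim28 at -0.43. The limma adjusted p was 0.305, 0.362 and 0.301. The list median was -0.19 at a median level of 6.82, beside -0.16 for all features of that decile. Across the alternatives it ran from -0.27 after median centring, through -0.07 after cyclic loess, to 0.04 with the signal range of each array as a covariate.

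Zfp600 and Zfp972, on different chromosomes, deviated together from animal to animal. After each group mean was removed, their values over the 8 arrays correlated at 0.94, while Gm14327 correlated with Zfp600 at 0.41 and with Zfp972 at 0.39, although it overlaps Zfp972. In both genes knockout replicate 4 and control replicate 3 were the highest of their groups. These points share the array, its depth of signal and its dissected tissue. Among the 23521 tested features, 107 others reached 0.9 or more with Zfp600, 148 with Zfp972 and 74 with Gm14327. How often such values arise by chance over 8 arrays was not tested.

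The 5 features most like each gene were ranked by the Pearson correlation of levels over the 8 arrays. For Zfp600 they were those of the olfactory receptor gene Olfr575 (0.98), Srsy (0.98), the crystallin gene Crygc (0.97), Gm6416 (0.97) and Rwdd3 (0.97). For Zfp972 they were Tom1l1 (0.98), Zfp93 (0.98), BC048507 (0.97), Crygc (0.97) and the mitochondrial gene ND2 (0.97). For Gm14327 they were Stx19 (0.98), Ccdc88b (0.97), Ddx43 (0.97), 1700016K19Rik (0.97) and Mroh2a (0.97). Levels include the difference between the groups that chose the genes, so a high value here is partly set by the choice.

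By deviations from the group means the order was another. The closest to Zfp600 were 4930432J09Rik (0.98), Zfp12 (0.97), Rasgrf2 (0.96), Tmem35b (0.96) and 2310067E19Rik (0.96). For Zfp972 they were the chemokine gene Cxcl13 (0.99), Olfr1320 (0.99), Klhl1 (0.98), Rtn4r (0.98) and Cyp2c29 (0.98). For Gm14327 they were Gm3693 (0.98), BC024978 (0.98), the hair cell transcription factor gene Atoh1 (0.98), Stx19 (0.98) and Smim31 (0.97). Of the 5 nearest by levels, only Stx19, for Gm14327, was also among the 5 nearest by deviations of the same gene.

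The signal range of the arrays, the SD of their log2 values over the tested features, tended to be narrower where the 3 genes read higher. It was 1.40, 1.44, 1.39 and 1.37 in knockout replicates 1 to 4 and 1.49, 1.52, 1.41 and 1.56 in control replicates 1 to 4. Control replicate 3, the control nearest to the knockout animals for Zfp600 and Zfp972, was the only control within the knockout span. Knockout replicate 4, highest for all 3 genes, had the narrowest range, and control replicate 4, lowest for Zfp972 and Gm14327, the widest. With signal range as a covariate the differences were 0.40 (SE 0.25) for Zfp600, 0.58 (SE 0.16) for Zfp972 and 0.47 (SE 0.30) for Gm14327. This measure overlaps with genotype and is computed from the tested features, so the 2 cannot be told apart.

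**Figure D5:**
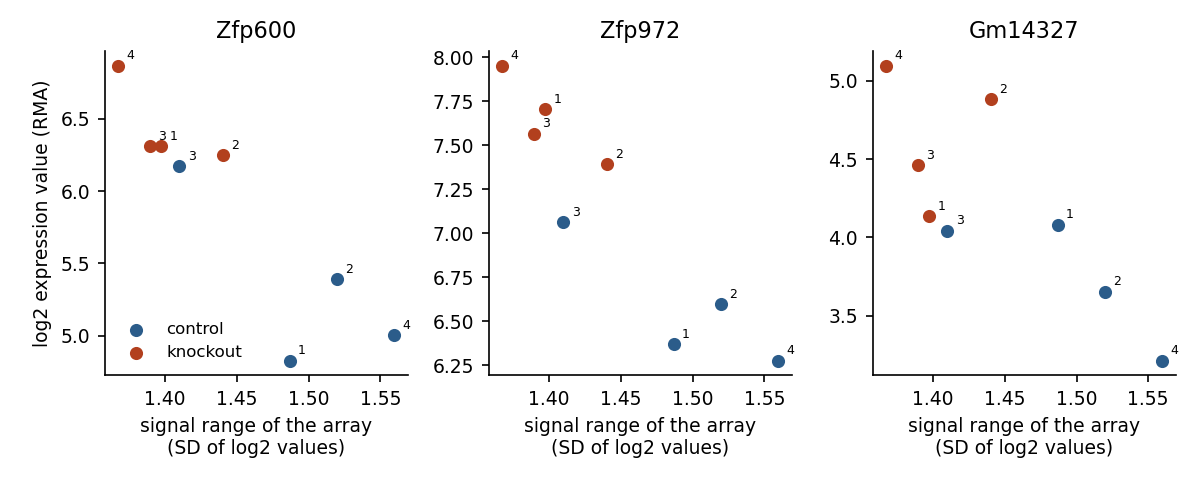
Log2 expression value of each gene against the signal range of the array (SD of its log2 values over tested features), with replicate numbers. Control replicate 3, at 1.41, lies within the knockout span of 1.37 to 1.44, and its values of Zfp600 and Zfp972 are the highest of the controls.

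Genes of the cochlear duct and lateral wall, listed to check the labelled tissue, had mean levels from 5.13 for Slc26a4 to 10.5 for Coch and Otos, and hair cell genes from 4.54 for Slc26a5 to 6.27 for Ocm, so several were no brighter than the median tested feature at 5.45. In the knockout arrays Mir96 read 4.21 ± 0.13 against 5.69 ± 0.40 in control arrays (SD, n = 4). The mean levels of marker lists were set beside these values: that of 6 skeletal muscle genes spanned 5.37 to 6.58 in knockout and 6.45 to 8.41 in control animals, and that of 6 auditory neuron genes 5.70 to 6.13 and 6.06 to 6.51. The level of 6 blood and marrow genes spanned 9.01 to 9.37 and 9.25 to 9.70, that of 3 measured of 5 Schwann cell genes 6.55 to 7.00 and 6.95 to 7.28, and that of 4 bone genes 9.49 to 9.92 and 9.69 to 10.04. The 6 hair cell genes spanned 5.38 to 5.61 and 5.42 to 5.62, and the 10 genes of the cochlear duct and lateral wall 6.58 to 6.97 and 6.92 to 7.08. Differences within the auditory neuron list ran from -1.09 for Snap25 to 0.35 at 1 feature of Gata3, with 3 of 7 features positive. Of these 7 features, 1 passed the limma adjusted threshold, against 0.0128% of all features. The blood and marrow, hair cell, and cochlear duct and lateral wall lists held both signs too. The part of these lists in the difference of the 3 genes was not tested. In whole tissue, fewer cells of a type and less RNA per cell cannot be told apart.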

How the data were processed

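The deposited log2 values are gene-level RMA estimates from the Affymetrix software Expression Console, per the labels. Software version, annotation release and genome build were not given in the sources used here. RMA background correction and quantile normalization can compress dim signals, and array number limits the precision.

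Of 41345 deposited features, 23521 with 1 gene symbol in the platform annotation were tested, 1814 had several symbols and 16010 none. The genotypes were compared in limma 3.58.1 (R 4.3.3) with lmFit and a trended eBayes, genotype as the only term and Benjamini-Hochberg adjustment over all tested features at 0.05. Features shared by several genes were fitted with all features of the table.

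The genes, lists and tests were chosen with earlier results of these data known. The naming rule took every feature of the 3 genes, the 5 most alike features by each measure, the 3 neighbours on each side, the 3 highest and 3 lowest Zfp-named features and the 3 largest differences of the repression list. Gm13212, Rex2, Zfp979 and other co-linked genes, and the comparisons by shared features and start-site windows, were chosen after their values were seen, in place of a planned comparison by protein sequence. Alternatives included a replicate block, other variance priors, normalizations and filters, a signal range covariate and leaving out each array.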

Additional observations from a re-analysis of the deposited data

Results flagged for a closer look

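Among 40 groups of 4 animals, 5 held an animal far from the other 3, where chance flags about 1 in 20 groups. The groups are not independent, since many come from features with largely the same symbols, so no excess is read from this count. Each ratio below is the animal's gap to its nearest neighbour divided by the range of its group.

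Zfp600 in knockout replicate 4 read 6.87, above the other knockout animals (ratio 0.896). Without this animal the Zfp600 difference was 0.94. Control replicate 1 was low at 2 features shared by Gm14327 and other symbols, at 7.61 (ratio 0.851) and 7.53 (ratio 0.865). The first of these has a duplicate with identical values, which was counted once. In the same animal the level of the cochlear duct and lateral wall list was high among controls at 7.08 (ratio 0.915). The Schwann cell list was low in knockout replicate 2 at 6.55 (ratio 0.830).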

How the results depend on the processing

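The choice of genes with separate groups fixes the sign of their differences when single arrays are left out, and the replicate block and the variance prior leave the differences as they are. The largest move came with signal range as a covariate, to 0.40 for Zfp600, 0.58 for Zfp972 and 0.47 for Gm14327, where 1 feature in all was called. Leaving out each array in turn gave 0.91 to 1.36 for Zfp600, 0.98 to 1.24 for Zfp972 and 0.72 to 1.07 for Gm14327. Over all tested features the count of calls was 3. It ran from 1 without control replicate 1 to 21 without control replicate 3, and was 1 over all features of the table. No Zfp-named feature besides the 3 genes was called under any of the 16 alternatives in limma. With the replicate block 3 features were called. Same-numbered animals correlated at 0.06, 0.21, 0.21 and -0.29 in their deviations, so the numbers were not taken as pairs. The planned comparison of relatives by protein sequence was not run. The number of arrays and the dim signal of Gm14327 limit what can be resolved.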
